A study of Mus musculus with 24 samples.

Results

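The genes described here encode the plexins, the semaphorins, the neuropilins and the plexin domain containing proteins. They were chosen by symbol, as Plxna to Plxnd with a number, *Plxdc1* and *Plxdc2*, Sema3 to Sema7 with a letter, and *Nrp1* and *Nrp2*, and 33 of the 49315 genes in the count table matched. They comprised 9 plexins, 2 neuropilins, 7 secreted semaphorins (class 3), 13 semaphorins held at the membrane (classes 4 to 7) and 2 plexin domain containing genes. RNA came from MS03, an *Nf2*-/- line of immortalized Schwann cells obtained by Cre infection of cells from an *Nf2* flox/flox mouse. All 8 groups carried the *Nf2* loss, so no group had intact *Nf2*, and the sources do not say whether the line is a single clone. Cells received DMSO, one of 4 focal adhesion kinase (FAK) inhibitors (defactinib, VS-4718, GSK2256098 or IN10018, each at 1 μM) or one of 3 proteolysis-targeting chimeras (PROTACs) against FAK, namely PROTAC FAK degrader 1 at 1 μM and GSK215 and BSJ-04-0146 (also spelled BSJ-04-146) at 0.1 μM. Exposure lasted 24 hours in every group, with 3 replicates per group and 24 libraries in all. The replicates are labelled biological, but no source says whether they were separate cultures, so the p values measure the spread between these libraries.

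Semaphorins are guidance cues first known for steering axons. Plexins are their receptors, and the part of a plexin inside the cell acts on small GTPases and so on the actin cytoskeleton and on adhesion to matrix. Most class 3 semaphorins, which are secreted, first bind a neuropilin, which then joins a class A plexin, whereas membrane semaphorins generally bind plexins directly. In peripheral nerve, Schwann cells and the cells around them both make semaphorins and carry their receptors. Since the RNA is from bulk cultures, a change in the share of cells that express a gene cannot be told apart from a change in its RNA per cell.

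Sequence is shown for 4 genes, the 2 with the largest increases, the 1 with the largest decrease and 1 that passed with every drug. The bases lie upstream of an annotated transcript start, whose use was not measured. They are from RefSeq (GRCm38.p6), run 5′ to 3′ on the strand of the gene, and leave out bases inside an annotated exon. Capitals mark the matches to the motifs searched, and sequences with no match are in lower case throughout. *Plxnb3* (chrX:73756853-73757089, plus strand) had the largest increase among the members tested, *Sema7a* (chr9:57939862-57940111, plus strand) the largest decrease, and *Sema6d* (chr2:124089719-124089968, plus strand) the second largest increase by gene. *Nrp1* (chr8:128358823-128359072, plus strand) was past the threshold with all 7 drugs. In GENCODE M21 (GRCm38) these protein-coding genes lie at chrX:73757090-73772514, chr9:57940112-57962865, chr2:124089969-124667770 and chr8:128358604-128503363 in this order, so that the bases shown for *Nrp1* fall in an intron of a longer annotated transcript and the others lie outside the gene.
*Plxnb3*: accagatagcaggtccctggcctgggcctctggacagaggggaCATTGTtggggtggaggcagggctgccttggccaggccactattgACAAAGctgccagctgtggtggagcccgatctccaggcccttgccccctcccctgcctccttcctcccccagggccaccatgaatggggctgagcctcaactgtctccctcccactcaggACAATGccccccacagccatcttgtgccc
*Sema7a*: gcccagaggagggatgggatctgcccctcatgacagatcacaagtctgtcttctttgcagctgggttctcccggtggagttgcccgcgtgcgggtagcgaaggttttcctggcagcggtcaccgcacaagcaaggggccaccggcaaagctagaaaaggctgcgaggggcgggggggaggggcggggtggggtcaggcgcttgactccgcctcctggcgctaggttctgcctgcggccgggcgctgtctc
*Sema6d*: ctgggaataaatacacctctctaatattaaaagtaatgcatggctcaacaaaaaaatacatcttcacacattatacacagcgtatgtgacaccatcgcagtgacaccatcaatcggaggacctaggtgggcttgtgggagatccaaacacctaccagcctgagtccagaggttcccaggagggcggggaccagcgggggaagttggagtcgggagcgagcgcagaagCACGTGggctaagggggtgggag
*Nrp1*: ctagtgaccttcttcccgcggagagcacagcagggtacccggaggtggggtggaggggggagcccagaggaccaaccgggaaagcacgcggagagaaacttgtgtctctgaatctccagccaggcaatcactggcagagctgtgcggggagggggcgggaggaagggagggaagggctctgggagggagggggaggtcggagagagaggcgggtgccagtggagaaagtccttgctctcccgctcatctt
The capitals upstream of *Plxnb3* are 3 matches to a SOX motif (ACAAAG or ACAATG, either strand), which start 207, 162 and 42 bases before the transcript start. In *Sema6d* they are an E-box (CACGTG) that starts 23 bases before it, and this overlaps 2 matches to the hypoxia element ACGTG. A second window of *Sema6d* (chr2:124653331-124653580), at another transcript start and not shown, held a SOX match that starts 246 bases before that start and no E-box. In *Sema7a* and *Nrp1* none of the motifs searched was found in these bases.

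The table of promoters held 37 windows for 26 of the members, and 7 motifs were searched on both strands of the 250 upstream bases. A SOX match was in 8 of the 37 windows (21.6%) against 25.2% of all 32851 windows, and the hypoxia element, which the E-box contains, was in 7 (18.9%) against 16.6%. AP-1 (TGANTCA) was in 3 windows (8.1% against 6.7%), the TEAD motif GGAATG in 3 (8.1% against 12.6%) and the E-box in 2 (5.4% against 6.0%). The cyclic AMP element TGACGTCA, present in 1.5% of all windows, and the ATF4 motif TGATGNAA, present in 3.5%, were in none of the 37. These are matches of letters and not measured sites.

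Depth ranged from 14472462 to 27449516 counts per library, of which the members together took 26588 to 47527. Of the 33 members, 29 passed the filter on low counts and were tested. Of the 15 Schwann cell markers checked, 11 reached at least 1 CPM (a count per 1000000 counts) in every group, among them *Sox10*, and *S100b*, *Egr2* and *Gap43* were among those that did not. Defining markers of endothelial cells (*Emcn*, *Tie1*, *Cdh5*), macrophages (*Ptprc*, *Adgre1*) and neurons (*Rbfox3*, *Elavl4*) had at most 2 counts in any library. The 5 endothelial markers together stayed at or under 0.79 CPM. The 6 macrophage markers, most of it *Cd68*, summed to 3.89 to 4.10 CPM with DMSO, 11.3 to 12.0 with PROTAC FAK degrader 1, 7.84 to 9.39 with BSJ-04-0146, 6.46 to 8.08 with GSK215 and 3.84 to 6.17 with the other 4 drugs. The 7 neuron markers, most of it *Map2*, summed to 61.6 to 62.8 CPM with DMSO, 82.6 to 89.2 with GSK215, 69.8 to 70.8 with BSJ-04-0146, 74.1 to 79.8 with defactinib, 76.7 to 79.0 with VS-4718 and 58.2 to 68.1 with the other 3. The part of these markers in the results was not tested. The fibroblast genes *Col1a1*, *Col1a2* and *Pdgfra* were expressed, with *Dcn* and *Lum* at most at 3 counts.

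In the DMSO libraries a plexin and a neuropilin stood above all other members. To compare genes, CPM was divided by the merged exon length in kilobases, giving RPKM (reads per kilobase and 1000000 reads). *Plxnb2*, a receptor of class 4 semaphorins, led all members with 53.0, 52.0 and 52.8 RPKM in the 3 DMSO libraries, and *Nrp2*, the neuropilin that binds *Sema3f*, followed with 32.5, 31.4 and 32.5 RPKM. These 2 genes did not overlap with each other or with any other member.
Among the ligands, *Sema3c*, which binds both neuropilins, had 16.3, 16.7 and 16.1 RPKM, and *Sema3f* had 15.9, 15.4 and 16.4 RPKM. *Sema7a*, a semaphorin anchored to the membrane by a lipid, had 8.90, 10.1 and 10.1 RPKM. The libraries of *Sema3c* and *Sema3f* overlapped, with means of 16.4 and 15.9 RPKM. With the longest transcript as length the means were 21.3 and 24.4 RPKM, so their order depends on the length used.
*Plxna1*, a coreceptor in class 3 signalling, had 12.7, 13.6 and 13.8 RPKM and *Plxnd1*, the receptor of *Sema3e*, had 5.56, 6.24 and 5.83 RPKM. *Nrp1*, which binds *Sema3a* and also vascular endothelial growth factor, was far below *Nrp2* with 1.90, 2.06 and 2.11 RPKM. *Plxdc2*, a receptor of the plexin domain containing kind, had 0.0456, 0.0162 and 0.0119 RPKM. At the low end, 4 members did not pass the filter and nothing is said about their change. *Plxna4* had 0 to 2 counts over the 24 libraries, *Sema5b* 0 to 2, *Plxdc1* 0 to 7 and *Plxdc2* 0 to 12. *Plxna4*, a partner of *Nrp1* in neurons, had no count in any DMSO library, which allows up to about 3 counts over the 3 libraries together.

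**Figure D1:**
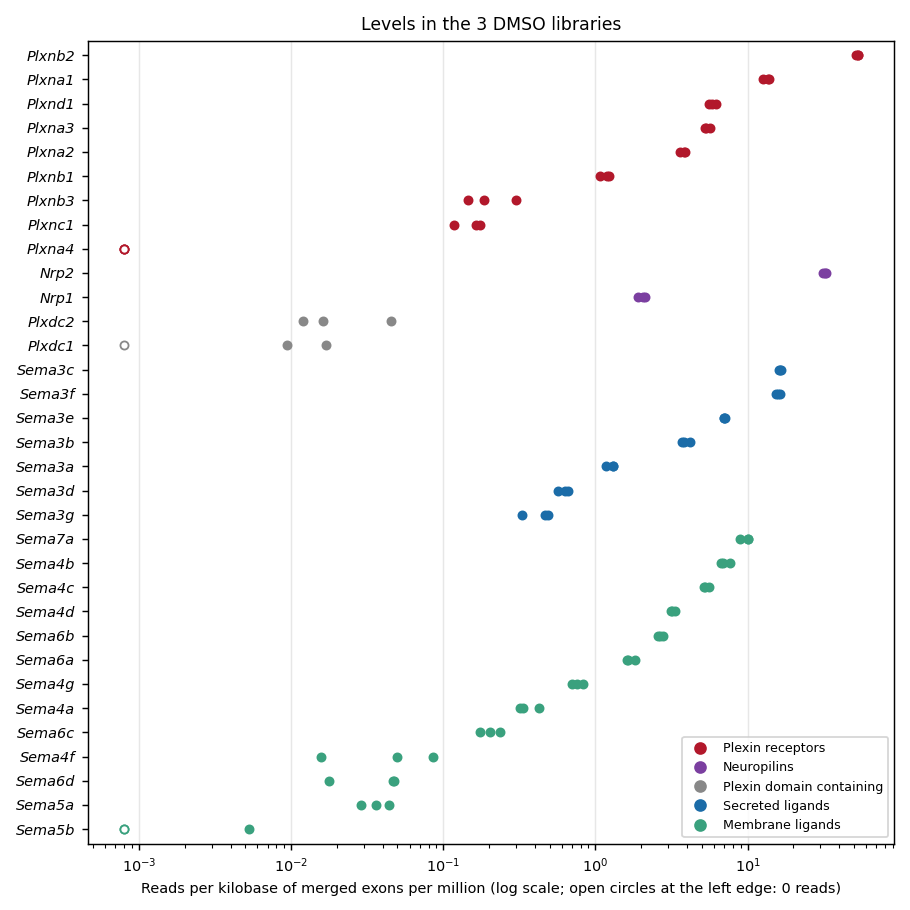
Levels of the 33 members in the 3 DMSO libraries, in reads per kilobase of merged exons (RPKM) on a log axis, with 1 point per library and open circles at the left edge for 0 counts. *Plxnb2* and *Nrp2* sit to the right of every other member, whereas *Plxna4* has only open circles.

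Changes were tested with edgeR's quasi-likelihood test on the counts, with Benjamini-Hochberg adjustment over all 16070 genes tested and a threshold of 0.05, and every adjusted p below comes from it. Log2 values in parentheses are fold changes against DMSO on the log2 scale, ± SE where given, with 3 libraries in each group. All 7 drugs were compared with the same 3 DMSO libraries. Defactinib raised 16 of the 29 members tested (55.2%) and lowered none, whereas of all genes tested 11.4% rose and 11.0% fell (22.4% in either direction). That none fell also held at an unadjusted p under 0.05 and with DESeq2. VS-4718 raised 16 (55.2%) and lowered 3 (10.3%), beside 20.4% higher and 18.9% lower among all genes (39.2% in all). With GSK2256098, 9 members rose (31.0%) and none fell, either in this test, at an unadjusted p under 0.05 or with DESeq2, beside 6.36% and 6.09% of all genes (12.5% in all). The median log2 fold change over the 29 members was 0.25 with defactinib, 0.19 with VS-4718 and 0.14 with GSK2256098, against medians over all genes within 0.005 of 0.

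IN10018, the fourth inhibitor, raised 1 member (3.4%) and lowered 6 (20.7%), beside 6.44% higher and 6.85% lower among all genes (13.3% in all), with a member median of -0.064. None of the 29 changed at least 2-fold with IN10018, whether by the adjusted p, an unadjusted p under 0.05 or DESeq2, beside 0.174% of all genes by the adjusted p.

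Among the PROTACs, PROTAC FAK degrader 1 raised 7 members (24.1%) and lowered 16 (55.2%), beside 34.1% and 32.7% of all genes (66.8% in all). GSK215 raised 18 (62.1%) and lowered 4 (13.8%), beside 27.4% and 27.2% (54.7% in all), and BSJ-04-0146 raised 15 (51.7%) and lowered 6 (20.7%), beside 27.7% and 26.9% (54.6% in all). The member medians were -0.16 with PROTAC FAK degrader 1, 0.50 with GSK215 and 0.29 with BSJ-04-0146. Scaling by library totals in place of TMM moved the median over all genes from 0.021 to 0.143 with GSK215 and from 0.018 to 0.126 with BSJ-04-0146, and the members then split as 20 higher and 2 lower with GSK215, 17 and 5 with BSJ-04-0146 and 8 and 13 with PROTAC FAK degrader 1. Past the threshold and at least 2-fold were 7 members with PROTAC FAK degrader 1 (14.3% of all genes were), 5 with GSK215 (7.12% of all genes) and 5 with BSJ-04-0146 (7.33% of all genes). With the inhibitors they were 1 with defactinib (0.585% of all genes), 2 with VS-4718 (2.07%) and 1 with GSK2256098 (0.212%), so the members' counts and the shares of all genes were both larger with the PROTACs.

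**Figure D2:**
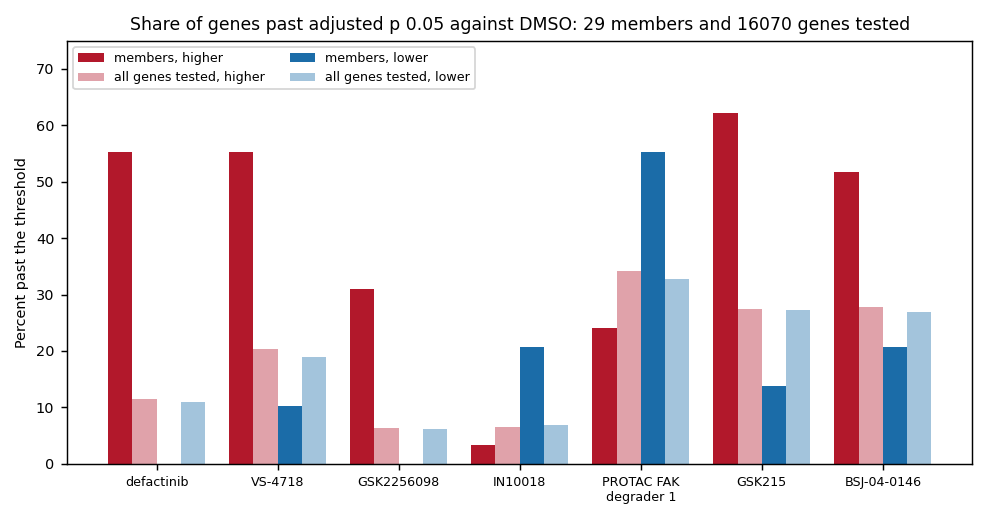
Percent of genes past an adjusted p of 0.05 against DMSO for each drug, in solid bars for the 29 members tested and in pale bars for all 16070 genes, with red for higher and blue for lower. The solid red bar is above the pale one with 5 drugs, and with IN10018 and PROTAC FAK degrader 1 the solid blue bar is the taller one.

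Over all 7 drugs, 26 of the 29 members (89.7%) passed the threshold with at least 1 drug, beside 84.9% of all genes, and *Plxnc1*, *Sema3g* and *Sema4f* passed it with none. Only *Nrp1* (3.4% of the members, beside 1.56% of all genes) passed it with all 7, and of these its call with IN10018 was lost without any one of 3 libraries (adjusted p = 0.0509 to 0.0648). In 17 members (58.6%), beside 25.4% of all genes, the drugs that moved the gene did not all move it in the same direction. For *Sema4d*, *Sema5a*, *Sema4g* and *Sema3f* this rests on 1 call, which was lost under an alternative given below.

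More plexins rose than fell with 5 of the 7 drugs, and with GSK215 and BSJ-04-0146 the largest rises were those of *Plxnb3*, *Plxnb1* and *Plxna2*. Of 8 plexins tested, 6 rose with defactinib (beside 11.4% of all genes), 7 with VS-4718 (20.4%), 4 with GSK2256098 (6.36%) and 5 each with GSK215 (27.4%) and BSJ-04-0146 (27.7%), which also lowered 2 (26.9%). With PROTAC FAK degrader 1, 2 rose and 4 fell, where 34.1% and 32.7% of all genes did. With IN10018, 2 fell (beside 6.85% of all genes) and none rose (0 at an unadjusted p under 0.05 and 0 with DESeq2). The plexins lowered went from 2 to 1 with BSJ-04-0146 under library totals and from 2 to 1 with IN10018 under no filter on low counts.

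*Plxnb3*, a class B plexin that binds *Sema5a* and is known from glia of the oligodendrocyte lineage, made the largest change of any member. It had 1.94, 1.20 and 0.948 CPM in the DMSO libraries, 17.0, 16.3 and 18.7 CPM with GSK215 and 17.1, 15.8 and 16.0 CPM with BSJ-04-0146. The libraries of both drugs lay well above all others, at 12.7 times the DMSO mean with GSK215 (log2 3.69 ± 0.14, adjusted p = 2.75e-23) and 11.9 times with BSJ-04-0146 (log2 3.59 ± 0.15, adjusted p = 9.2e-23). With defactinib it had 3.92, 3.73 and 3.50 CPM (log2 1.46 ± 0.18, adjusted p = 8.13e-08), with VS-4718 4.15, 4.59 and 4.03 CPM (log2 1.65 ± 0.17, adjusted p = 3.45e-10) and with GSK2256098 3.22, 3.10 and 2.58 CPM (log2 1.14 ± 0.19, adjusted p = 3.49e-05). All 9 of these libraries were above the 3 DMSO libraries. With IN10018 (1.98, 1.37 and 1.67 CPM) and with PROTAC FAK degrader 1 (0.873, 1.56 and 1.47 CPM) the libraries overlapped with DMSO, and the log2 fold changes were 0.32 (adjusted p = 0.373) and -0.065 (adjusted p = 0.82). The 15 Schwann cell markers summed to 204 to 210 CPM with DMSO. The sums were 487 to 499 with GSK215, 448 to 476 with BSJ-04-0146, and 288 to 309 with VS-4718, 260 to 272 with defactinib and 240 to 256 with GSK2256098. They were 203 to 209 with IN10018 and 207 to 215 with PROTAC FAK degrader 1. Behind the like sum with PROTAC FAK degrader 1, single markers lay on both sides of DMSO. Mean *Sox10* was 12.2 CPM beside 20.1 with DMSO, *Ngfr* 4.93 beside 10.4 and *Sox2* 36.7 beside 54.2, while *Mbp* was 30.1 beside 15.4 and *Dhh* 17.4 beside 11.1. The part of these markers in the result was not tested.

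*Plxnb1*, the receptor of *Sema4d*, had 11.7, 10.2 and 11.4 CPM with DMSO, 23.8, 27.1 and 23.8 CPM with GSK215 and 22.9, 25.2 and 21.0 CPM with BSJ-04-0146. It was 2.24 times the DMSO mean with GSK215 (log2 1.17 ± 0.073, adjusted p = 7.17e-17) and 2.07 times with BSJ-04-0146 (log2 1.06 ± 0.074, adjusted p = 2.06e-15). VS-4718 raised it to 17.6, 17.3 and 17.4 CPM (log2 0.65 ± 0.073, adjusted p = 2.01e-09) and defactinib to 13.0, 14.0 and 14.0 CPM (log2 0.30 ± 0.077, adjusted p = 0.00331). PROTAC FAK degrader 1 lowered it to 8.22, 9.13 and 8.88 CPM (log2 -0.34 ± 0.086, adjusted p = 0.000562), with no library in the DMSO range. The values with GSK2256098 (12.3, 13.0 and 13.5 CPM) and IN10018 (10.4, 11.2 and 10.7 CPM) did not pass the threshold (log2 0.22, adjusted p = 0.052 and log2 -0.037, adjusted p = 0.828), though that with GSK2256098 did when scaled by library totals or fitted on the 6 libraries alone.
*Plxna2*, a class A plexin, binds class 6 semaphorins as well as neuropilin complexes. It had 62.2, 66.1 and 65.4 CPM with DMSO, 139.7, 129 and 126 CPM with GSK215 (log2 1.02 ± 0.042, adjusted p = 1.35e-22) and 123, 122 and 127 CPM with BSJ-04-0146 (log2 0.94 ± 0.042, adjusted p = 2.37e-21). It had 85.7, 81.8 and 90.0 CPM with defactinib, 89.7, 85.7 and 88.8 CPM with VS-4718 and 80.1, 78.9 and 79.1 CPM with GSK2256098, each above all DMSO libraries and past the threshold. PROTAC FAK degrader 1 gave 48.6, 50.9 and 51.4 CPM, below all of them (log2 -0.36 ± 0.046, adjusted p = 5.54e-09).

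*Plxnd1* and *Plxna3* rose with all 3 PROTACs. *Plxnd1* had 40.6, 45.6 and 42.6 CPM with DMSO and 69.9, 69.4 and 72.4 CPM with PROTAC FAK degrader 1 (log2 0.71 ± 0.049, adjusted p = 3.07e-16). It had 77.1, 77.0 and 78.4 CPM with GSK215 (log2 0.85 ± 0.049, adjusted p = 4.91e-18) and 70.1, 72.4 and 71.6 CPM with BSJ-04-0146 (log2 0.73 ± 0.049, adjusted p = 5.97e-16), and it also rose with defactinib, VS-4718 and GSK2256098 (log2 0.27, 0.23 and 0.27). IN10018 libraries overlapped with DMSO (log2 0.022, adjusted p = 0.839).
*Plxna3* had 41.5, 44.9 and 42.0 CPM with DMSO, 60.6 to 61.4 CPM with PROTAC FAK degrader 1 (log2 0.51, adjusted p = 2.48e-13) and 59.7 to 61.4 CPM with GSK215 (log2 0.50, adjusted p = 1.67e-12). Its smaller rise with BSJ-04-0146 (log2 0.14, adjusted p = 0.0107) was lost when 1 library was left out (adjusted p = 0.0533 to 0.0715 without BSJ-04-0146 replicate 3 or DMSO replicate 1 or 3, log2 0.11 to 0.12).

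*Plxnb2* and *Plxna1*, the 2 most abundant plexins, each rose with some drugs and fell with others. *Plxnb2* had 409, 401 and 407 CPM with DMSO and 454, 465 and 491 CPM with defactinib, all above DMSO (log2 0.21 ± 0.031, adjusted p = 2.61e-06). BSJ-04-0146 gave 351, 351 and 359 CPM, all below (log2 -0.20 ± 0.032, adjusted p = 1.27e-06). VS-4718 raised it to 448, 435 and 438 CPM (log2 0.12, adjusted p = 0.00243). PROTAC FAK degrader 1 gave a log2 fold change of -0.098 (adjusted p = 0.00652), which did not pass with library totals (log2 -0.016, adjusted p = 0.668), and IN10018 gave -0.095 (adjusted p = 0.0388), which was lost when 1 library was left out (adjusted p = 0.07 to 0.219 without DMSO replicate 1 or 2 or 3 or IN10018 replicate 1 or 2, log2 -0.067 to -0.10). With GSK215 its libraries overlapped with DMSO (log2 -0.013, adjusted p = 0.764), but turned to 0.11 higher with library totals (adjusted p = 0.00236).
*Plxna1* had 115, 123 and 125 CPM with DMSO and rose to 162, 159.7 and 154 CPM with VS-4718 (log2 0.39 ± 0.042, adjusted p = 6.16e-10) and to 134, 143 and 138 CPM with GSK2256098 (log2 0.19 ± 0.042, adjusted p = 0.00134). It fell to 93.0, 89.6 and 88.2 CPM with PROTAC FAK degrader 1 (log2 -0.42 ± 0.044, adjusted p = 6.11e-11) and to 104, 106 and 105 CPM with IN10018 (log2 -0.21 ± 0.043, adjusted p = 0.000921). The fall with BSJ-04-0146 (log2 -0.18, adjusted p = 0.000534) did not pass with library totals (adjusted p = 0.163), under which GSK215 turned from a log2 fold change of -0.016 (adjusted p = 0.782) to 0.11 higher (adjusted p = 0.0375). An antisense gene, *Gm26811*, covers 10.7% of the exon bases of *Plxna1*, and reads of both genes cannot be told apart where the counting used no strand. *Plxnc1*, the receptor of *Sema7a*, was low (12 to 42 counts per library) and passed the threshold with none of the drugs, with log2 fold changes between -0.53 and 0.27, and at an unadjusted p under 0.05 with none either. With PROTAC FAK degrader 1 it passed without DMSO replicate 2 (-0.69, adjusted p = 0.0404) and without replicate 2 of the drug (-0.72, adjusted p = 0.0455).

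**Figure D3:**
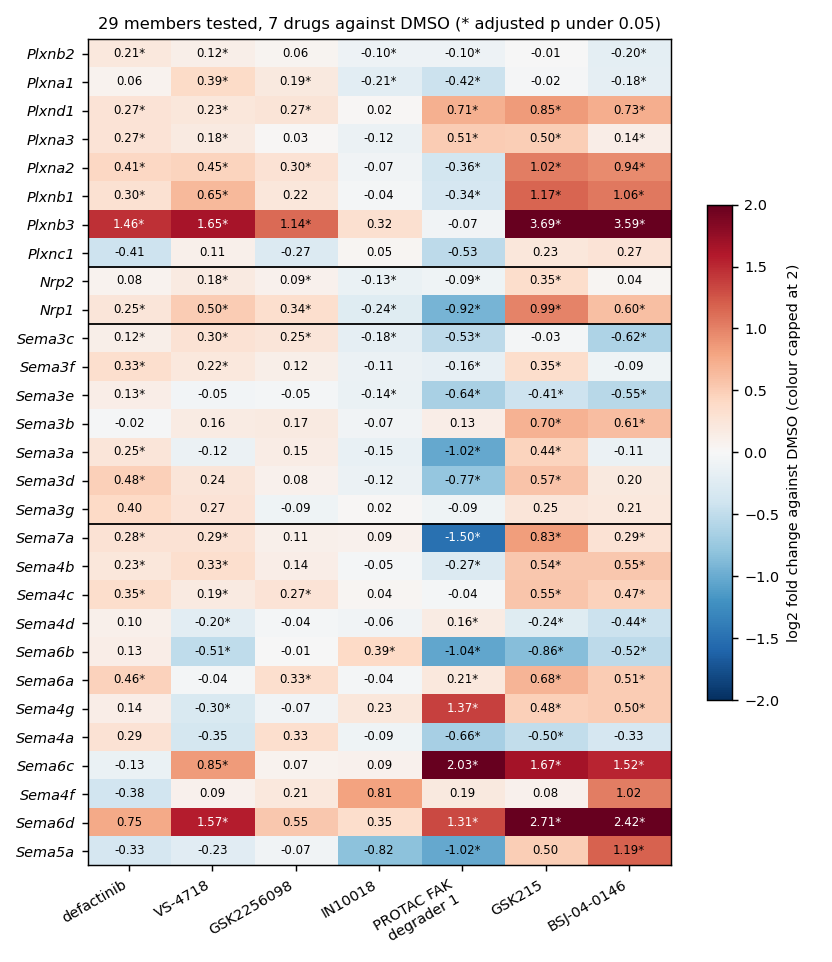
Log2 fold change against DMSO of the 29 members tested (rows, by role and by falling DMSO level) with each of the 7 drugs (columns), where an asterisk marks an adjusted p under 0.05. The largest value is 3.69 for *Plxnb3* with GSK215 and the lowest -1.50 for *Sema7a* with PROTAC FAK degrader 1.

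At least 1 of the 2 neuropilins, coreceptors that bind class 3 semaphorins, passed the threshold with every drug. Beside this, 54.6% to 66.8% of all genes passed it with the PROTACs and 12.5% to 39.2% with the inhibitors. With the PROTACs a call in 1 of 2 genes was thus near the share of all genes. *Nrp1* had 18.6, 20.1 and 20.6 CPM with DMSO, 39.7, 40.0 and 38.4 CPM with GSK215 and 30.2, 30.1 and 29.4 CPM with BSJ-04-0146. It was 1.99 times the DMSO mean with GSK215 (log2 0.99 ± 0.059, adjusted p = 2.21e-17) and rose 1.51 times with BSJ-04-0146 (log2 0.60 ± 0.062, adjusted p = 1.01e-10). PROTAC FAK degrader 1 gave 9.00, 11.1 and 11.3 CPM, 53.0% of the DMSO mean (log2 -0.92 ± 0.073, adjusted p = 2.52e-14).
Among the inhibitors, VS-4718 gave 27.6, 27.7 and 28.7 CPM (log2 0.50 ± 0.060, adjusted p = 7.87e-09), GSK2256098 24.2, 26.0 and 25.0 CPM (log2 0.34 ± 0.061, adjusted p = 0.000113) and defactinib 21.8, 24.4 and 24.2 CPM (log2 0.25 ± 0.062, adjusted p = 0.00282). IN10018 gave 17.4, 16.4 and 16.5 CPM, all below DMSO (log2 -0.24 ± 0.066, adjusted p = 0.0116), but this last call was lost when 1 library was left out (adjusted p = 0.0509 to 0.0648 without DMSO replicate 2 or 3 or IN10018 replicate 3, log2 -0.21 to -0.23). In no drug group did the *Nrp1* libraries overlap with those of DMSO.
*Nrp2* moved over a narrower range. It had 385, 371 and 385 CPM with DMSO, 502, 475 and 477 CPM with GSK215 (log2 0.35 ± 0.030, adjusted p = 5.79e-13) and 430.4, 428 and 432 CPM with VS-4718 (log2 0.18 ± 0.030, adjusted p = 5.7e-06). IN10018 lowered it to 344, 354 and 346 CPM (log2 -0.13 ± 0.030, adjusted p = 0.00264). The smaller changes depended on settings. With PROTAC FAK degrader 1 (log2 -0.088, adjusted p = 0.00916) the call was lost with library totals (adjusted p = 0.873), and with GSK2256098 (log2 0.091, adjusted p = 0.0373) it was lost whichever of the 6 libraries was left out (adjusted p = 0.071 to 0.206 without DMSO replicate 1 or 2 or 3 or GSK2256098 replicate 1 or 2 or 3, log2 0.072 to 0.096). With BSJ-04-0146 the libraries overlapped with DMSO (log2 0.040, adjusted p = 0.273), and library totals raised the value to 0.15 (adjusted p = 6.89e-05). With defactinib it did not pass (log2 0.076, adjusted p = 0.0634), but did with DESeq2 (adjusted p = 0.0338).

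**Figure D4:**
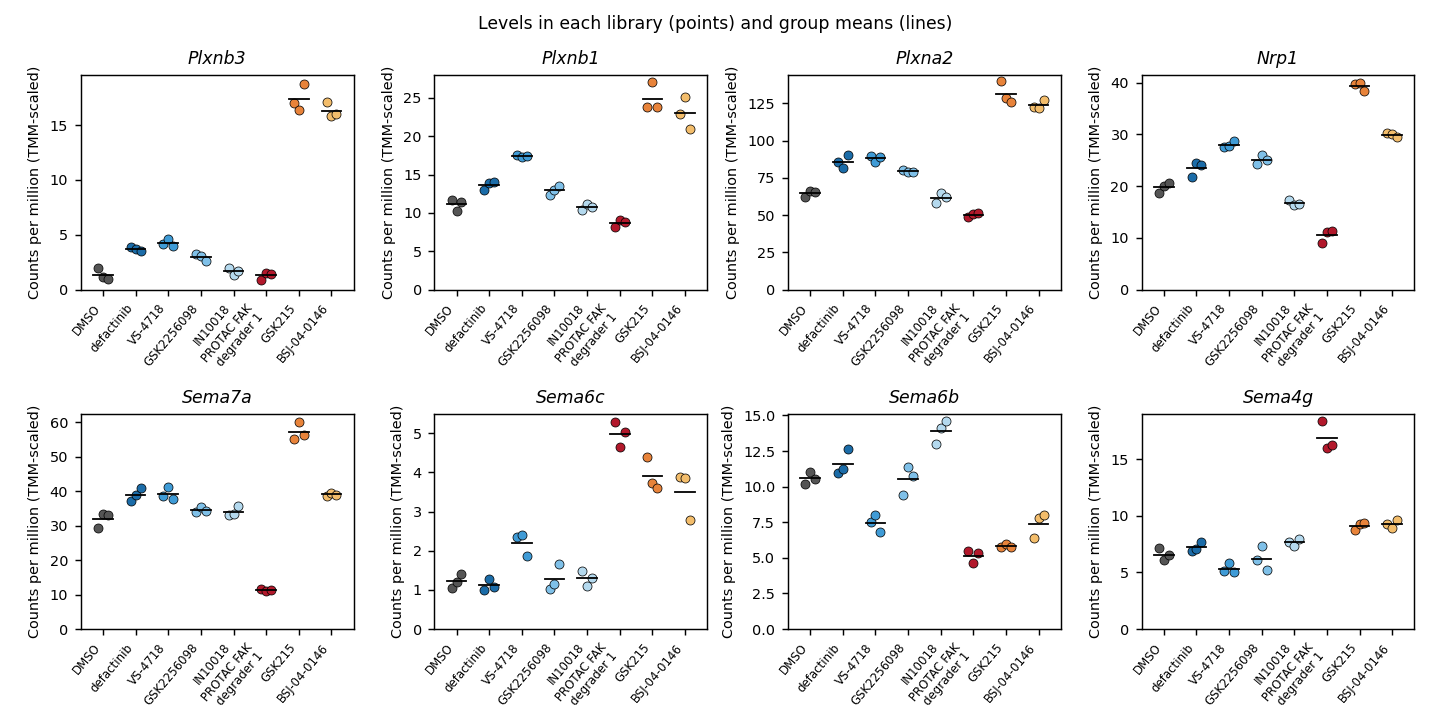
Levels of 8 members in each of the 24 libraries, in CPM scaled by TMM, with 1 point per library and a line at each group mean. *Plxnb3*, *Plxnb1*, *Plxna2* and *Nrp1* have their highest mean with GSK215, whereas *Sema6c* and *Sema4g* have it with PROTAC FAK degrader 1 and *Sema7a* and *Sema6b* are lowest there.

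Of the 7 secreted ligands tested, PROTAC FAK degrader 1 lowered 5 and raised none (0 at an unadjusted p under 0.05 and 0 with DESeq2), beside 32.7% of all genes lowered. GSK215 raised 4 (beside 27.4% of all genes) and lowered 1 (27.2%). With library totals in place of TMM, PROTAC FAK degrader 1 raised 1 and lowered 4, since *Sema3b* passed (log2 0.21, adjusted p = 0.00871) and *Sema3f* did not (-0.083, adjusted p = 0.0952). *Sema3b* also passed without DMSO replicate 2 (0.18, adjusted p = 0.043). Defactinib raised 5 (beside 11.4% of all genes), VS-4718 raised 2 (20.4%) and GSK2256098 raised 1 (6.36%). IN10018 lowered 2 (beside 6.85%). The numbers with BSJ-04-0146, which raised 1 (27.7%) and lowered 2 (26.9%), were near or under the shares of all genes. Library totals doubled the numbers raised by 3 drugs. They went from 2 to 4 with VS-4718 (*Sema3b*, log2 0.20, adjusted p = 0.0173, and *Sema3d*, 0.28, adjusted p = 0.0483), from 1 to 2 with GSK2256098 (*Sema3f*, 0.13, adjusted p = 0.037) and from 1 to 2 with BSJ-04-0146 (*Sema3d*, 0.31, adjusted p = 0.0297). With no filter on low counts, those lowered by IN10018 went from 2 to 1. The summed level of the secreted ligands was 307 to 309 CPM with DMSO, 227 to 235 with PROTAC FAK degrader 1, 248 to 254 with BSJ-04-0146 and 278 to 282 with IN10018. It was 326 to 338 with GSK215, 337 to 340 with GSK2256098, 344 to 353 with VS-4718 and 344 to 357 with defactinib. The 6 fibroblast markers summed to 1733 to 1776 CPM with DMSO, 995 to 1008 with PROTAC FAK degrader 1, 1335 to 1411 with BSJ-04-0146 and 1581 to 1648 with IN10018. Their sum was 1632 to 1684 with GSK215, 1761 to 1815 with GSK2256098, 1517 to 1585 with VS-4718 and 1768 to 1824 with defactinib. *Dcn* and *Lum* were at or near 0 throughout, and mean *Pdgfra* was 12.4 CPM with DMSO, 8.76 with PROTAC FAK degrader 1, 26.3 with GSK215 and 26.0 with BSJ-04-0146. The part of these genes in the result was not tested.
*Sema3a*, the ligand that repels axons through *Nrp1*, had 18.1, 18.0 and 16.3 CPM with DMSO and 7.95, 10.0 and 7.98 CPM with PROTAC FAK degrader 1, 49.5% of the DMSO mean (log2 -1.02 ± 0.10, adjusted p = 1.3e-11). GSK215 raised it to 25.0, 23.8 and 22.8 CPM (log2 0.44 ± 0.086, adjusted p = 3.01e-05), while with BSJ-04-0146 it had 15.1, 17.7 and 15.7 CPM and did not pass the threshold (log2 -0.11, adjusted p = 0.313). A rise with defactinib (log2 0.25, adjusted p = 0.0295) was lost when 1 library was left out (adjusted p = 0.154 to 0.243 without DMSO replicate 3 or defactinib replicate 1, log2 0.16 to 0.20).
*Sema3c*, the ligand with the highest mean by merged exon length, had 116, 119 and 115 CPM with DMSO, 79.5, 84.4 and 79.2 CPM with PROTAC FAK degrader 1 (log2 -0.53 ± 0.043, adjusted p = 8e-14) and 80.1, 69.3 and 79.5 CPM with BSJ-04-0146 (log2 -0.62 ± 0.044, adjusted p = 4.21e-15). Both of these groups were below every other library. VS-4718 (141, 142 and 147 CPM, log2 0.30, adjusted p = 1.45e-07) and GSK2256098 (141, 141 and 134 CPM, log2 0.25, adjusted p = 4.13e-05) raised it and IN10018 lowered it (100.1, 103 and 106 CPM, log2 -0.18, adjusted p = 0.00288). GSK215 libraries overlapped with DMSO (log2 -0.034, adjusted p = 0.517), and the rise with defactinib (log2 0.12, adjusted p = 0.0332) was lost when 1 library was left out (adjusted p = 0.103 to 0.158 without DMSO replicate 1 or 3 or defactinib replicate 1 or 3, log2 0.096 to 0.11).

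*Sema3e*, the ligand of *Plxnd1*, fell with all 3 PROTACs. It had 65.8, 64.7 and 64.8 CPM with DMSO and 40.8, 43.8 and 40.3 CPM with PROTAC FAK degrader 1 (log2 -0.64 ± 0.040, adjusted p = 1.81e-17). It had 49.4, 48.8 and 48.8 CPM with GSK215 (log2 -0.41 ± 0.040, adjusted p = 1.58e-11) and 45.3, 44.8 and 43.1 CPM with BSJ-04-0146 (log2 -0.55 ± 0.040, adjusted p = 7.01e-15). All 9 PROTAC libraries were thus below all other libraries, the inhibitor groups spanning 58.8 to 72.7 CPM. Defactinib raised it slightly (log2 0.13, adjusted p = 0.00649) and IN10018 lowered it (log2 -0.14, adjusted p = 0.0119), the last call being lost with no filter on low counts (adjusted p = 0.0591).
*Sema3f*, the ligand of *Nrp2*, had 82.6, 80.2 and 85.2 CPM with DMSO, 102, 104 and 106 CPM with defactinib (log2 0.33 ± 0.042, adjusted p = 1.68e-07) and 104, 107 and 106 CPM with GSK215 (log2 0.35 ± 0.043, adjusted p = 4.62e-09). VS-4718 also raised it (log2 0.22, adjusted p = 5.86e-05), and its fall with PROTAC FAK degrader 1 (log2 -0.16, adjusted p = 0.00129) was lost with library totals (adjusted p = 0.0952).
*Sema3d*, another neuropilin ligand, had 5.43, 4.85 and 5.69 CPM with DMSO and 2.76, 3.18 and 3.41 CPM with PROTAC FAK degrader 1 (log2 -0.77 ± 0.13, adjusted p = 2.91e-06). It rose with GSK215 (7.62, 8.28 and 7.80 CPM, log2 0.57, adjusted p = 4.42e-05) and defactinib (7.76, 8.01 and 6.53 CPM, log2 0.48, adjusted p = 0.00132). *Sema3b* rose with GSK215 (28.4 to 31.9 CPM against 17.8 to 20.0 with DMSO, log2 0.70, adjusted p = 1.88e-11) and BSJ-04-0146 (27.7 to 30.4 CPM, log2 0.61, adjusted p = 6.76e-10), and *Sema3g*, with 22 to 68 counts per library, passed the threshold with none of the drugs.

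The membrane ligands moved in both directions with 4 of the drugs. Of 12 tested, PROTAC FAK degrader 1 raised 5 and lowered 5, where it raised 34.1% and lowered 32.7% of all genes. GSK215 raised 7 (beside 27.4% of all genes) and lowered 3 (27.2%), BSJ-04-0146 raised 8 (27.7%) and lowered 2 (26.9%), and VS-4718 raised 5 (20.4%) and lowered 3 (18.9%). The numbers lowered by GSK215 and BSJ-04-0146 were near or under the shares of all genes, and with library totals GSK215 lowered 1 in place of 3. Defactinib raised 4 (beside 11.4%), GSK2256098 raised 2 (6.36%) and IN10018 raised 1 (6.44%).

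*Sema7a*, which signals through *Plxnc1* and through integrins, made the largest fall of any member. It had 29.4, 33.4 and 33.2 CPM with DMSO and 11.5, 11.0 and 11.4 CPM with PROTAC FAK degrader 1, 35.4% of the DMSO mean (log2 -1.50 ± 0.065, adjusted p = 2.31e-22). GSK215 raised it to 55.0, 60.0 and 56.2 CPM, 1.79 times the DMSO mean (log2 0.83 ± 0.051, adjusted p = 3.05e-17). BSJ-04-0146 (38.7, 39.4 and 39.0 CPM, log2 0.29, adjusted p = 1.71e-05), VS-4718 (38.6, 41.1 and 37.8 CPM, log2 0.29, adjusted p = 1.43e-05) and defactinib (37.2, 38.8 and 40.9 CPM, log2 0.28, adjusted p = 6.22e-05) also raised it. The fall and the rises lay on opposite sides of the DMSO libraries with no overlap, and the groups at different doses were not tested against each other.

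Class 6 semaphorins are transmembrane ligands of class A plexins. *Sema6c* had 1.04, 1.20 and 1.40 CPM with DMSO and 5.28, 4.64 and 5.04 CPM with PROTAC FAK degrader 1, 4.11 times higher (log2 2.03 ± 0.18, adjusted p = 8.7e-13). It had 4.40, 3.74 and 3.60 CPM with GSK215 (log2 1.67 ± 0.19, adjusted p = 9.46e-10), 3.89, 3.85 and 2.78 CPM with BSJ-04-0146 (log2 1.52 ± 0.19, adjusted p = 1.22e-08) and 2.36, 2.40 and 1.86 CPM with VS-4718 (log2 0.85 ± 0.20, adjusted p = 0.000604). All 12 of these libraries were above the DMSO range, whereas the other 3 inhibitors overlapped with it and did not pass the threshold.
*Sema6d*, a ligand of *Plxna1*, was low, with 5 to 52 counts per library. It had 0.497, 0.188 and 0.494 CPM with DMSO, 2.69, 2.40 and 2.57 CPM with GSK215 (log2 2.71 ± 0.31, adjusted p = 1.48e-09) and 1.83, 2.06 and 2.36 CPM with BSJ-04-0146 (log2 2.42 ± 0.32, adjusted p = 3.8e-08). It also rose with VS-4718 (1.68, 0.611 and 1.14 CPM, log2 1.57, adjusted p = 0.000239) and PROTAC FAK degrader 1 (1.01, 0.835 and 1.05 CPM, log2 1.31, adjusted p = 0.00162).
*Sema6b* fell instead. It had 10.2, 11.1 and 10.5 CPM with DMSO, 5.47, 4.64 and 5.36 CPM with PROTAC FAK degrader 1 (log2 -1.04 ± 0.10, adjusted p = 1.05e-11) and 5.78, 5.98 and 5.78 CPM with GSK215 (log2 -0.86 ± 0.10, adjusted p = 2.22e-09). It fell with BSJ-04-0146 (6.36, 7.81 and 7.98 CPM, log2 -0.52, adjusted p = 1.75e-05) and VS-4718 (7.51, 7.99 and 6.84 CPM, log2 -0.51, adjusted p = 1.46e-05). IN10018 raised it to 13.0, 14.1 and 14.6 CPM, all above DMSO (log2 0.39 ± 0.084, adjusted p = 0.00112), the 1 member that rose with that drug. *Sema6a*, a ligand of *Plxna2* and *Plxna4*, had 14.2 to 16.0 CPM with DMSO and rose with GSK215 (log2 0.68, adjusted p = 3.13e-09), BSJ-04-0146 (log2 0.51, adjusted p = 2.06e-06) and defactinib (log2 0.46, adjusted p = 3.86e-05). With GSK2256098 (log2 0.33, adjusted p = 0.0048) its call was lost when 1 library was left out (adjusted p = 0.068 without GSK2256098 replicate 3, log2 0.26), and with PROTAC FAK degrader 1 (log2 0.21, adjusted p = 0.0312) likewise (adjusted p = 0.0629 to 0.108 without DMSO replicate 2 or 3 or PROTAC FAK degrader 1 replicate 1 or 2, log2 0.17 to 0.21).

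Of the class 4 semaphorins, which signal mostly through class B plexins, *Sema4g* had the largest change past the threshold. It had 7.15, 6.05 and 6.51 CPM with DMSO and 18.3, 16.0 and 16.2 CPM with PROTAC FAK degrader 1, 2.57 times higher (log2 1.37 ± 0.091, adjusted p = 1.85e-16). It also rose with GSK215 (8.73, 9.29 and 9.33 CPM, log2 0.48 ± 0.10, adjusted p = 0.000106) and BSJ-04-0146 (9.31, 8.94 and 9.63 CPM, log2 0.50 ± 0.10, adjusted p = 5.76e-05), with every PROTAC library above DMSO. Its fall with VS-4718 (log2 -0.30, adjusted p = 0.0207) was lost when 1 library was left out (adjusted p = 0.0596 to 0.0934 without DMSO replicate 1 or VS-4718 replicate 1 or 3, log2 -0.25 to -0.29).
*Sema4b* rose with GSK215 (56.6, 57.6 and 59.8 CPM against 43.3, 37.6 and 38.9 with DMSO, log2 0.54, adjusted p = 1.11e-11) and BSJ-04-0146 (54.5, 58.9 and 61.3 CPM, log2 0.55, adjusted p = 1.02e-11), rose with VS-4718 (log2 0.33, adjusted p = 1.27e-06) and defactinib (log2 0.23, adjusted p = 0.000843), and fell with PROTAC FAK degrader 1 (34.3, 33.2 and 31.7 CPM, log2 -0.27, adjusted p = 5.35e-05). *Sema4c*, the ligand of *Plxnb2*, rose with GSK215 (35.2 to 36.7 CPM against 23.9 to 25.6, log2 0.55, adjusted p = 1.8e-10), BSJ-04-0146 (log2 0.47, adjusted p = 1.12e-08), defactinib (log2 0.35, adjusted p = 1.37e-05) and GSK2256098 (log2 0.27, adjusted p = 0.00105). Its rise with VS-4718 (log2 0.19, adjusted p = 0.0093) was lost when 1 library was left out (adjusted p = 0.0626 to 0.0844 without DMSO replicate 2 or VS-4718 replicate 1 or 3, log2 0.14 to 0.16), and *D430040D24Rik* overlaps 7.3% of its exon bases.
*Sema4d*, the ligand of *Plxnb1* and an immune semaphorin, had 24.6, 24.2 and 25.5 CPM with DMSO and 17.4, 17.6 and 19.9 CPM with BSJ-04-0146, all below (log2 -0.44 ± 0.071, adjusted p = 1.57e-06). The smaller values were less firm. The fall with VS-4718 (log2 -0.20, adjusted p = 0.0111) and the rise with PROTAC FAK degrader 1 (log2 0.16, adjusted p = 0.027) were each lost when 1 library was left out (adjusted p = 0.0594 without VS-4718 replicate 2, log2 -0.17 for the first and adjusted p = 0.0605 to 0.103 without DMSO replicate 1 or 2 or PROTAC FAK degrader 1 replicate 1, log2 0.14 to 0.16 for the second), and the fall with GSK215 (log2 -0.24, adjusted p = 0.00271) was lost with library totals (adjusted p = 0.134).
*Sema4a* had 1.73 to 2.29 CPM with DMSO and fell with PROTAC FAK degrader 1 (1.15 to 1.31 CPM, log2 -0.66, adjusted p = 0.00258), and its fall with GSK215 (log2 -0.50, adjusted p = 0.0261) was lost when 1 library was left out (adjusted p = 0.0589 to 0.199 without DMSO replicate 2 or GSK215 replicate 1 or 2, log2 -0.35 to -0.50) and with DESeq2 (adjusted p = 0.077). *Sema4f*, which Schwann cells use in contact with axons, had 2 to 14 counts per library and passed the threshold with none of the drugs. Its largest value was that with BSJ-04-0146 (log2 1.02, adjusted p = 0.0914), which passed without DMSO replicate 1 (1.57, adjusted p = 0.0281). *Sema5a*, the ligand of *Plxnb3*, had 0.543, 0.677 and 0.824 CPM with DMSO and 1.30, 1.79 and 1.60 CPM with BSJ-04-0146 (log2 1.19 ± 0.31, adjusted p = 0.00108). It fell with PROTAC FAK degrader 1 (0.322, 0.261 and 0.420 CPM, log2 -1.02 ± 0.39, adjusted p = 0.0205), a call that was lost when 1 library was left out (adjusted p = 0.0561 to 0.0833 without DMSO replicate 3 or PROTAC FAK degrader 1 replicate 1 or 2, log2 -0.87 to -0.99), and its 3 to 33 counts per library leave wide errors.

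Some ligands and their known receptors moved in opposite directions with the same drug, and some moved in the same direction. These pairs were picked after the values were seen and are a description. With PROTAC FAK degrader 1, GSK215 and BSJ-04-0146, *Sema3e* had log2 fold changes of -0.64, -0.41 and -0.55, and its receptor *Plxnd1* had 0.71, 0.85 and 0.73. With defactinib, however, *Sema3e* and *Plxnd1* both rose past the threshold. For *Sema4d* and its receptor *Plxnb1* the values were -0.44 and 1.06 with BSJ-04-0146. For *Sema3a* and *Nrp1* the values were -1.02 and -0.92 with PROTAC FAK degrader 1 and 0.44 and 0.99 with GSK215, with like signs. With BSJ-04-0146 they were -0.11 (adjusted p = 0.313) and 0.60, and with VS-4718 -0.12 (adjusted p = 0.292) and 0.50. Both members of the pair *Sema5a* and *Plxnb3* rose with BSJ-04-0146, at 1.19 and 3.59. Likewise *Sema3f* and its receptor *Nrp2* both rose with GSK215 and with VS-4718.

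For 3 pairs, the compounds were given at equal dose and time and were compared directly. PROTAC FAK degrader 1 and defactinib, both at 1 μM, differed in 22 of the 29 members (75.9%), 4 of them higher (13.8%) and 18 lower (62.1%) with the degrader, whereas 34.9% of all genes were higher and 34.0% lower (68.9% in all). The median difference over the members was -0.49 on the log2 scale, against -0.004 over all genes. *Sema7a* was at 29.0% of its defactinib mean, a log2 difference (with its 95% interval) of -1.78 (-1.91 to -1.66), and *Plxnb3* at 35.0%, -1.53 (-1.91 to -1.14). *Nrp1* differed by -1.17 (-1.31 to -1.03), *Sema3a* by -1.27 (-1.47 to -1.07), *Sema3d* by -1.25 (-1.51 to -0.997) and *Sema6b* by -1.17 (-1.37 to -0.97). *Sema6c*, by 2.16 (1.79 to 2.54), and *Sema4g*, by 1.23 (1.04 to 1.41), were higher with the degrader, as were *Plxnd1*, by 0.44 (0.34 to 0.54), and *Plxna3*, by 0.24 (0.15 to 0.32). The libraries of the 2 drugs did not overlap in the 10 genes just named. All of these had passed the threshold, as 68.9% of all genes did, so this adds no support. The share of all genes without overlap was not counted. At least 2-fold differences past the threshold were found in 8 members, beside 16.2% of all genes. *Sema4d* did not pass the threshold, with 0.066 (-0.065 to 0.20), and *Sema6a* lost its call (log2 -0.26, adjusted p = 0.00557) when 1 library was left out (adjusted p = 0.15 without defactinib replicate 3, log2 -0.14).

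GSK215 and BSJ-04-0146, both at 0.1 μM, differed in 12 members (41.4%), 11 higher (37.9%) and 1 lower (3.4%) with GSK215, beside 9.88% higher and 12.6% lower among all genes (22.5% in all). The members higher with GSK215 included both neuropilins and 5 of the 7 secreted ligands, of which none was lower (0 at an unadjusted p under 0.05 and 0 with DESeq2). *Sema3c* differed by 0.58 (0.49 to 0.67), *Sema3a* by 0.56 (0.37 to 0.74), *Sema7a* by 0.55 (0.44 to 0.65) and *Sema3f* by 0.44 (0.35 to 0.53). *Nrp1* differed by 0.39 (0.27 to 0.51), *Plxna3* by 0.36 (0.27 to 0.45) and *Nrp2* by 0.31 (0.25 to 0.37). In *Plxnb3*, *Plxnb1*, *Plxna2* and *Sema6c*, which both drugs raised, the difference did not pass the threshold. The values were 0.092 (-0.11 to 0.30) for *Plxnb3*, 0.11 (-0.027 to 0.25) for *Plxnb1*, 0.083 (0.001 to 0.16) for *Plxna2* and 0.15 (-0.20 to 0.49) for *Sema6c*. For *Sema6d*, 0.29 (-0.22 to 0.80), and *Sema5a*, -0.69 (-1.30 to -0.072), the intervals were too wide to call the 2 drugs alike. The 1 gene lower with GSK215, *Sema6b* (log2 -0.34, adjusted p = 0.0267), lost its call when 1 library was left out (adjusted p = 0.0555 to 0.127 without BSJ-04-0146 replicate 2 or 3 or GSK215 replicate 1 or 2 or 3, log2 -0.28 to -0.35), as did *Sema3d* (adjusted p = 0.0645 to 0.0739 without BSJ-04-0146 replicate 2 or 3 or GSK215 replicate 2, log2 0.34 to 0.36), *Sema3e* (adjusted p = 0.0631 without BSJ-04-0146 replicate 3, log2 0.12) and *Plxna1* (adjusted p = 0.0776 without BSJ-04-0146 replicate 2, log2 0.12). None of the 29 differed by at least 2-fold, by the adjusted p, an unadjusted p under 0.05 or DESeq2, beside 0.473% of all genes by the adjusted p.

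VS-4718 and defactinib, both at 1 μM, differed in 18 members (62.1%), 8 higher (27.6%) and 10 lower (34.5%) with VS-4718, beside 18.0% and 16.0% of all genes (34.0% in all). Higher with VS-4718 were *Sema6c*, by 0.98 (0.57 to 1.40), *Plxnb1*, by 0.35 (0.21 to 0.50), and *Plxna1*, by 0.32 (0.24 to 0.41). Lower were *Sema6b*, by -0.65 (-0.83 to -0.46), *Sema4a*, by -0.64 (-0.99 to -0.29), *Sema6a*, by -0.50 (-0.67 to -0.34), *Sema4g*, by -0.44 (-0.66 to -0.23), *Sema3a*, by -0.37 (-0.54 to -0.20), and *Sema4d*, by -0.30 (-0.43 to -0.17). *Sema7a*, at 0.003 (-0.098 to 0.10), and *Plxna2*, at 0.037 (-0.046 to 0.12), did not pass the threshold. The higher value of *Sema6d* with VS-4718 (log2 0.82, adjusted p = 0.0364) was lost when 1 library was left out (adjusted p = 0.0618 to 0.384 without VS-4718 replicate 1 or 3 or defactinib replicate 2 or 3, log2 0.43 to 0.88). None of the 29 differed by at least 2-fold here either, by the adjusted p, an unadjusted p under 0.05 or DESeq2, beside 1.14% of all genes by the adjusted p.

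**Figure D5:**
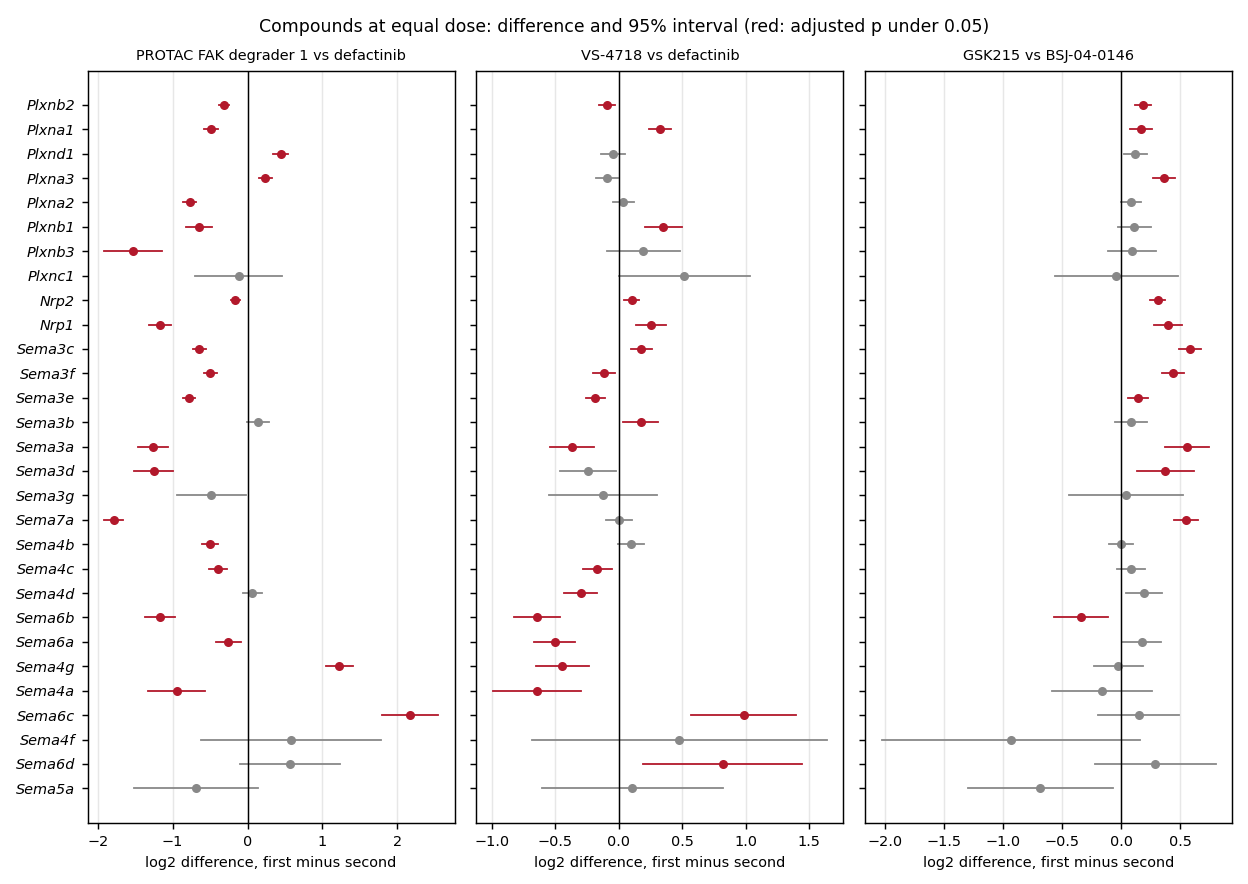
Log2 difference and 95% interval of each of the 29 members tested for the 3 pairs of drugs given at equal dose, first drug minus second, with red for an adjusted p under 0.05. In the left panel most points lie left of 0, with *Sema7a* at -1.78 and *Sema6c* at 2.16, and in the right panel the secreted ligands and neuropilins lie at or right of 0.

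Other genes of the pathway were counted by direction, from a list of 51 that held coreceptors, ligands of the neuropilins and the signalling proteins inside the cell. Of the 51, 45 were tested. PROTAC FAK degrader 1 raised 20 (44.4%, beside 34.1% of all genes) and lowered 14 (31.1%, beside 32.7%). GSK215 raised 12 (26.7%, beside 27.4%) and lowered 14 (31.1%, beside 27.2%), near the shares of all genes, and BSJ-04-0146 raised 15 (33.3%, beside 27.7%) and lowered 16 (35.6%, beside 26.9%). VS-4718 raised 17 (37.8%, beside 20.4%) and lowered 6 (13.3%, beside 18.9%), and IN10018 raised 10 (22.2%, beside 6.44%) and lowered 3 (6.7%, beside 6.85%). Defactinib raised 7 (15.6%, beside 11.4%) and lowered 5 (11.1%, beside 11.0%), and GSK2256098 raised 6 (13.3%, beside 6.36%) and lowered 5 (11.1%, beside 6.09%). *Met*, a tyrosine kinase that class B plexins bind, fell with 6 of the 7 drugs, from log2 -0.10 with GSK2256098 to -1.36 with PROTAC FAK degrader 1, and was at -0.05 with defactinib (adjusted p = 0.25). *L1cam*, a partner of *Nrp1*, fell with PROTAC FAK degrader 1 (-0.82) and rose with GSK215 (1.19), BSJ-04-0146 (1.01), VS-4718 (1.01), defactinib (0.68) and GSK2256098 (0.47). *Rras*, a GTPase that plexins switch off, rose with PROTAC FAK degrader 1 (1.24), IN10018 (0.34) and VS-4718 (0.21). *Mical1*, an enzyme that oxidizes actin, rose with PROTAC FAK degrader 1 (1.46) and passed with no other drug. *Rnd1*, a GTPase that binds the plexin cytoplasmic part, fell with GSK215 (-1.18), BSJ-04-0146 (-1.45), GSK2256098 (-0.24), VS-4718 (-0.17) and defactinib (-0.16), and rose with PROTAC FAK degrader 1 (0.64) and IN10018 (0.21). *Vegfa*, the growth factor that shares *Nrp1* with *Sema3a*, fell with GSK215 (-0.91), BSJ-04-0146 (-0.90), VS-4718 (-0.88) and GSK2256098 (-0.30), and rose with PROTAC FAK degrader 1 (0.83) and IN10018 (0.43).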

How the data were processed

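Per the labels, poly(A)-selected libraries were made by a commercial service from 500 ng RNA with the NEBNext Ultra II kit. The submitters' processing notes name Trimmomatic 0.36, STAR 2.5.2b, featureCounts, Subread 1.5.2 and GRCm38, and the strand setting and annotation release are not given in the sources used here. The authors deposited raw counts per Ensembl gene, whole numbers with no normalization, and the log2(CPM + 4) step of the study was made after them and was not used. Columns were matched to samples by the library numbers in the labels.

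Counts were fitted in R 4.3.3 with edgeR 4.0.16 (TMM, filterByExpr, glmQLFit and glmQLFTest, 1 coefficient per group over the 24 libraries, 16 residual degrees of freedom), two-sided, with Benjamini-Hochberg adjustment over 16070 genes and a threshold of 0.05. Each SE was taken from F, as |log2 fold change| over its root. CPM uses TMM-scaled totals, so the values are relative to the whole library. RPKM was computed with merged exon lengths of GENCODE M21 (GRCm38), which held 49056 of the 49315 identifiers. The fit was tested on simulated counts.

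Values per library, in the groups with the larger changes, are given for the 3 members with the highest DMSO RPKM among the ligands, among the plexins and among the remaining genes, those that changed at least 2-fold in any drug, and those that moved in opposite directions, 22 genes in all, with other groups given by their fold change and other members by range. Gene lists, rules and members were chosen with earlier results of these data known. Alternatives were DESeq2 1.42.0, library totals, no filter on low counts, a block for the replicate number, only the 6 libraries of a comparison, a minimum of 2-fold, each library left out in turn, and the longest transcript as gene length. Proteins were not analysed here, and 1 marker gene is not reported here.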

Additional observations from a re-analysis of the deposited data

How the results depend on the processing

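Of 290 fold changes (29 members in 10 comparisons), 169 passed the threshold. Of these, 31 lost it under at least 1 alternative, the 2-fold minimum left aside. A further 2 values reversed, both with GSK215 and library totals in place of TMM. They were *Plxna1* from -0.016 to 0.106 (adjusted p = 0.0375) and *Plxnb2* from -0.013 to 0.110 (adjusted p = 0.00236). Neither passed with TMM, and the same change moved the median of all genes from 0.021 to 0.143. Library totals, DESeq2, no filter and only the 6 libraries kept the number of members called, both directions together, within 1.5 times. In a single direction, those lower with GSK215 went from 4 to 2 with library totals, where *Sema4a* and *Sema4d* lost their calls, and the 1 lower for GSK215 against BSJ-04-0146 went to 0 with no filter or only the 6 libraries. Requiring at least 2-fold left 1 member with defactinib, 2 with VS-4718, 1 with GSK2256098, 0 with IN10018, 7 with PROTAC FAK degrader 1, 5 with GSK215, 5 with BSJ-04-0146, 8 for PROTAC FAK degrader 1 against defactinib and 0 for each of the other 2 pairs, which follows from the sizes of the changes. Leaving out each library in turn gave 14 to 16 members with defactinib, 17 to 19 with VS-4718, 8 to 9 with GSK2256098, 5 to 6 with IN10018, 20 to 23 with PROTAC FAK degrader 1, 21 to 22 with GSK215 and 20 to 21 with BSJ-04-0146, and for the pairs 22 to 23, 14 to 17 and 9 to 12 (PROTAC FAK degrader 1 and VS-4718 against defactinib, and GSK215 against BSJ-04-0146). Replicates with the same number did not deviate together (correlations -0.17 to 0.10), so the numbers pair no samples. With the replicate block the counts were as before except for VS-4718 (20 in place of 19), where *Sema3b* passed (log2 0.159, adjusted p = 0.0466). The longest transcript as length raised the DMSO level of *Nrp1* from 2.02 to 5.42 RPKM and of *Nrp2* from 32.1 to 56.6 RPKM. Low counts limit *Sema4f*, *Sema5a*, *Sema6d* and *Plxnc1*, whose errors are widest.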
